A study of Homo sapiens with 4 samples.

Results

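Ceramide metabolism was described at the RNA level from 10 genes, chosen by name from the deposited table: the sphingomyelinases SMPD1, SMPD2, SMPD3 and SMPD4, the ceramidases ASAH1, ACER2 and ACER3, the sphingomyelin synthases SGMS1 and SGMS2, and the sphingosine kinase SPHK1. All 10 names were found, each in 1 row, among 58174 rows with a gene identifier. The cells were SW1990 and PANC-1, established human pancreatic cancer cell lines at passage 14-16. SW1990 was grown in 1640 medium and PANC-1 in DMEM, both with 10% serum, so line and medium cannot be told apart. Each line was left unirradiated (0 Gy) or exposed to 10 Gy of X-rays, and RNA of each of the 4 conditions was sequenced as 1 library. The time from irradiation to RNA collection is not given in the sources used here. In the study, dying irradiated cells were examined as a source of exosomes, and GW4869, an inhibitor of neutral sphingomyelinase, was used to reduce exosome release. The question asked of the table is therefore which enzymes of this pathway the cells transcribed, and whether their RNA differed after irradiation.

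Ceramide is the hub of sphingolipid metabolism. Sphingomyelinases release it from sphingomyelin, ceramide synthases build it de novo, ceramidases break it down to sphingosine, and sphingosine kinases turn sphingosine into the signalling lipid sphingosine 1-phosphate. Sphingomyelin synthases run the opposite way and use ceramide to make sphingomyelin. Ceramide is known as a lipid formed in irradiated cells, and ceramide made by the neutral sphingomyelinase SMPD3 is known to help vesicles bud into the endosomes from which exosomes are released.

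The library totals over gene rows were 17851815 and 18305682 counts in unirradiated and irradiated SW1990, and 23323266 and 20026595 counts in unirradiated and irradiated PANC-1. Levels are given as FPKM (fragments scaled by transcript length and library depth), which can be compared between genes. Folds are ratios of counts scaled by TMM factors, on the log2 scale, and each has an exact 95% interval that covers counting error only. With 1 library per condition no p-value within a line is given, and such a fold compares 2 libraries. In RNA of whole cultures, fewer cells that express a gene and less of its RNA per cell cannot be told apart. A gene was compared where its FPKM was at least 1 in at least 1 of the 2 libraries, and was called past 2-fold above that fold. In SW1990, 7.9% of 15731 genes compared were past 2-fold between the irradiated and the unirradiated library, and in PANC-1 7.76% of 15159.

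The labelled cell type was checked first. Of 9 ductal and epithelial markers, 9 reached an FPKM of 1 in both SW1990 libraries, and their summed level was 2993 and 3784 FPKM. In PANC-1, 7 and 8 of them did, with sums of 1462 and 1691 FPKM. KRT8, a keratin of simple epithelia, was the most abundant in all 4 libraries. CDH1, the epithelial cadherin, had 9906 and 14345 counts in SW1990 and 59 and 65 in PANC-1, whereas VIM, a mesenchymal intermediate filament, had 17 and 0 counts in SW1990 and 82406 and 75166 in PANC-1. Of the mesenchymal and fibroblast list, COL1A2 and DCN were at 0 counts in all 4 libraries, while COL1A1 had 103 and 165 counts in SW1990 and 965 and 1315 in PANC-1, and PDGFRB had 129 and 63 counts in SW1990 and 0 and 3 in PANC-1. The summed level of that list was 3.58 and 3.88 FPKM in SW1990 and 1635 and 1661 FPKM in PANC-1, where VIM made up nearly all of it. The leukocyte gene CD3E was at 0 counts in all 4 libraries. Of the leukocyte list CD68, a lysosomal glycoprotein of macrophages that other cells also make, was the most abundant, at 0.844 and 0.92 FPKM in SW1990 and 18.8 and 13.9 FPKM in PANC-1. Whether the epithelial and mesenchymal difference of the lines bears on their ceramide genes was not tested.

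SMPD4 was the most abundant of the 10 genes in every library, and SMPD3 the least. In unirradiated SW1990 the order by FPKM was SMPD4, ASAH1, SGMS1, SMPD2, SGMS2, ACER3, SMPD1, ACER2, SPHK1 and SMPD3. In unirradiated PANC-1 it was SMPD4, SMPD2, SGMS1, ACER3, ASAH1, SGMS2, SMPD1, SPHK1, ACER2 and SMPD3. Neighbours in these orders, such as SGMS1 at 11.3 and SMPD2 at 11.1 FPKM in SW1990, or SGMS1 at 10.3 and ACER3 at 10.2 FPKM in PANC-1, cannot be ranked from 1 library each. In these orders of the unirradiated libraries, the place of ASAH1 differed most between the lines. Those of SMPD2 and ACER3 came next, but both genes are among these close neighbours.

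**Figure D1:**
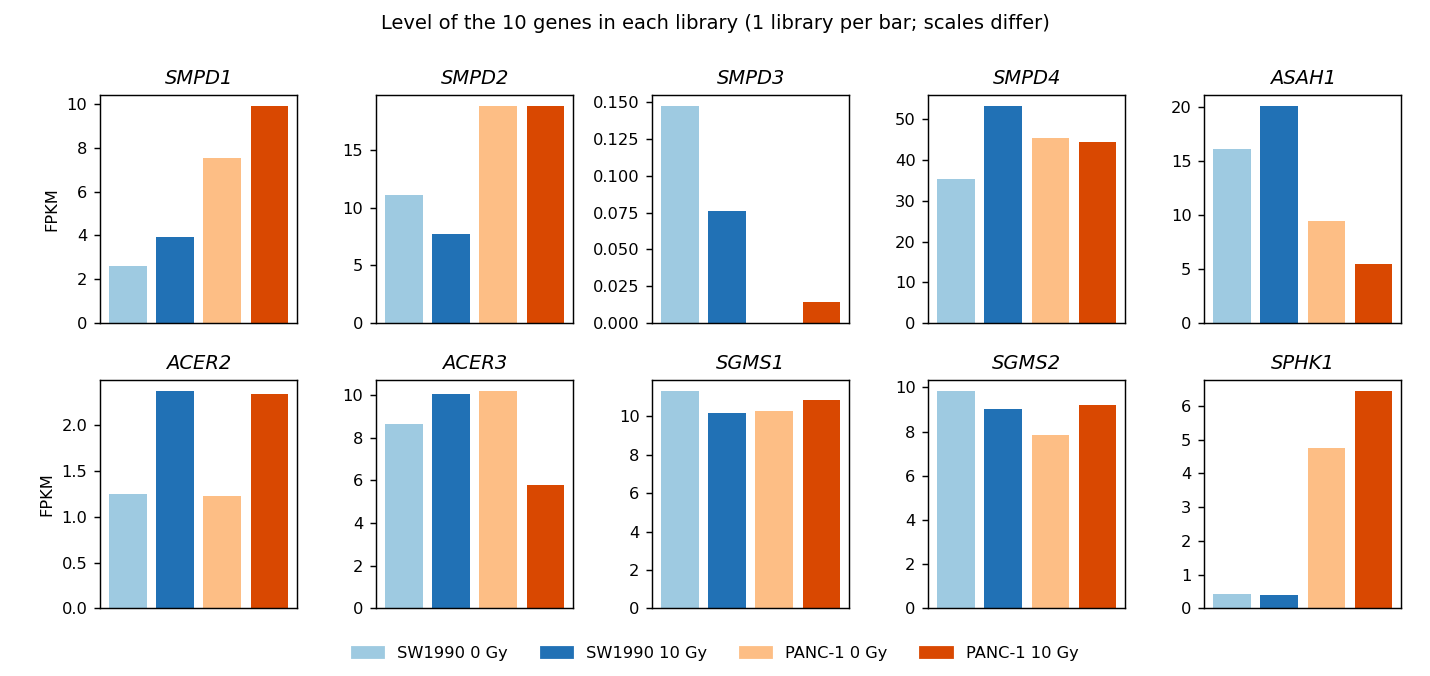
Level of the 10 genes in FPKM (vertical axis, a scale of its own in each panel, starting at 0), with 1 bar per library. SMPD3 stays below 0.15 FPKM in all libraries, ACER2 is higher in the irradiated library of both lines, and SPHK1 is high in PANC-1 alone.

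SMPD3, the neutral sphingomyelinase 2 gene (chr16:68358325-68448688, minus strand, GRCh38), was hardly transcribed in either line. It had 10 counts in unirradiated and 10 in irradiated SW1990, and 0 and 2 counts in unirradiated and irradiated PANC-1. The levels were 0.148 and 0.076 FPKM in SW1990, and 0 and 0.0145 FPKM in PANC-1. A count of 0 allows up to 3 counts in that library, or 0.14 CPM (counts scaled to library depth), if counts are independent. Where both mates of a pair were counted, this bound would be wider. The gene met the FPKM limit in no comparison, so no fold with radiation is given. A difference with radiation was not detectable at this depth. On the same strand AC099521.2 shares 755 bases with its exons and had 0 and 0 counts in SW1990 and 2 and 4 in PANC-1. Its exons also overlap those of PRMT7 on the other strand over 239 bases, and PRMT7 had between 523 and 884 counts. Whether counting used the strand is not given in the sources used here, so the few SMPD3 counts are uncertain.

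SMPD4 (chr2:130151392-130182750, minus strand), a neutral sphingomyelinase of the endoplasmic reticulum and nuclear envelope, had 2592 and 2952 counts in unirradiated and irradiated SW1990 and 3613 and 3606 in PANC-1. Its FPKM was 35.4 and 53.4 in SW1990 and 45.4 and 44.6 in PANC-1. The log2 fold with radiation was 0.21 (0.13 to 0.28) in SW1990 and 0.13 (0.06 to 0.19) in PANC-1. From the FPKM values the folds were 0.59 and -0.03, so the size in SW1990 and the sign in PANC-1 depended on the unit. The exons of SMPD4 share 11.1% of their bases with MZT2B on the other strand, which had 401 to 797 counts. The near-identical copies SMPD4P1 and SMPD4P2 were listed at 0.

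SMPD2 (chr6:109440763-109443919, plus strand), a neutral sphingomyelinase of the endoplasmic reticulum, had 345 and 267 counts in SW1990 and 803 and 663 in PANC-1. The levels were 11.1 and 7.72 FPKM in SW1990 and 18.9 and 18.9 FPKM in PANC-1. The log2 fold with radiation was -0.35 (-0.58 to -0.11) in SW1990. In PANC-1 it was -0.15, with an interval from -0.30 to just above 0, and the log2 fold from FPKM was 0.003. PPIL6 on the other strand covers 20.3% of its exonic bases but had at most 17 counts.

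SMPD1 (chr11:6390431-6394998, plus strand) encodes the acid sphingomyelinase of lysosomes, which can also act at the outer cell surface. It had 110 and 169 counts in SW1990 and 382 and 451 in PANC-1, or 2.6 and 3.92 FPKM and 7.54 and 9.93 FPKM. The irradiated library was the higher of the pair in both lines, and both PANC-1 libraries were above both SW1990 libraries. The log2 fold with radiation was 0.64 (0.29 to 1.0) in SW1990 and 0.37 (0.17 to 0.57) in PANC-1.

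Among the 4 sphingomyelinases, SMPD4 made up 71.9% of the summed FPKM in unirradiated and 82% in irradiated SW1990, and 63.2% and 60.7% in PANC-1. SMPD2 made up 22.6% and 11.8% in SW1990 and 26.3% and 25.7% in PANC-1. The acid enzyme's gene SMPD1 made up 5.27% and 6.01% in SW1990 and 10.5% and 13.5% in PANC-1. SMPD3 made up at most 0.3%. ENPP7, which encodes the alkaline sphingomyelinase of the gut, was at 0 counts in all libraries, as was SMPD5, which GENCODE 29 lists as a pseudogene. The share of SMPD2 was lower after irradiation in SW1990, where SMPD4 was higher, while the make-up in PANC-1 differed by less.

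**Figure D2:**
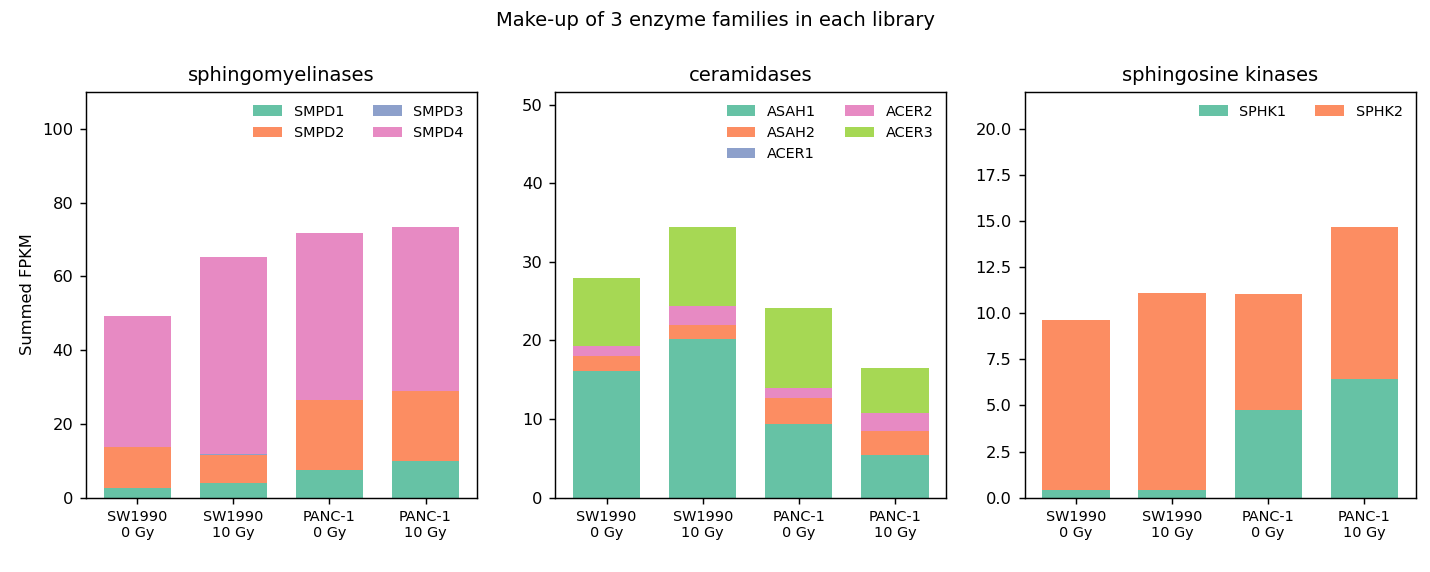
Summed FPKM of 3 enzyme families in each library (vertical axis from 0), stacked by gene. SMPD4 is the largest part of the sphingomyelinases in all 4 libraries, ACER3 and ASAH1 make most of the ceramidases, and SPHK1 is visible as a large part of the sphingosine kinases only in PANC-1.

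ACER2 was the member with the largest fold by radiation in both lines. It encodes an alkaline ceramidase of the Golgi apparatus (chr9:19409059-19452020, plus strand). Its promoter is shown because no other member had as large a fold in the same direction in both lines. RefSeq promoter windows were found for 8 of the 10 members (GRCh38.p14). The 250 bases before the RefSeq start of ACER2, chr9:19408759-19409008 on the plus strand, are printed 5′ to 3′. They overlap no annotated exon, and capitals mark matches to GGGCGG on either strand.

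ACER2: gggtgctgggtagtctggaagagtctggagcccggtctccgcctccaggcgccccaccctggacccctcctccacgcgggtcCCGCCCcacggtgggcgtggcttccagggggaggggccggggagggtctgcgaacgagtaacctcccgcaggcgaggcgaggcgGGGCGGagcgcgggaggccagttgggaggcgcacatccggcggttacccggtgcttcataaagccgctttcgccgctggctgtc

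The window held 2 matches to GGGCGG, which 42.6% of 35116 windows of this length hold at least 1 of. The E-box CACGTG, which 6.34% of the windows hold, was not matched on either strand. The same held for the TATA box TATAAA, held by 10.7% of the windows, for the CCAAT box, held by 32%, and for the AP-1 motif TGACTCA, held by 4.2%. The p53 decamer, held by 5.57% of the windows, had no match either. A missing match says only that these letters are not in this window. The window had 25 CG dinucleotides, and 21.6% of all windows had as many or more.

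ACER2 had 62 counts in unirradiated and 119 in irradiated SW1990, and 80 and 131 counts in unirradiated and irradiated PANC-1. The levels were 1.24 and 2.38 FPKM in SW1990 and 1.23 and 2.34 FPKM in PANC-1. The libraries thus separated by treatment and hardly by line. The log2 fold was 0.96 (0.51 to 1.43) in SW1990 and 0.84 (0.43 to 1.26) in PANC-1, which is 1.95-fold and 1.79-fold and short of the 2-fold limit. In SW1990 8.75% of genes had a larger fold in either direction, and in PANC-1 11.3%. In the fit over all 4 libraries (edgeR quasi-likelihood test, cell line as covariate, 1 residual degree of freedom) the log2 fold was 0.90 ± 0.331 (SE), with an unadjusted p of 0.0404 and an adjusted p of 0.944. The difference therefore did not pass the test over all 18244 genes. The counts behind it are low, and with counts cut to 50% the lower bounds were 0.33 in SW1990 and 0.27 in PANC-1.

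ASAH1, the acid ceramidase of lysosomes, went apart in the lines. It had 827 and 928 counts in unirradiated and irradiated SW1990, and 511 and 312 in PANC-1. The levels were 16.1 and 20.1 FPKM in SW1990 and 9.4 and 5.48 FPKM in PANC-1. The log2 fold was 0.19 (0.05 to 0.32) in SW1990 and -0.58 (-0.79 to -0.38) in PANC-1, a difference of 0.77 that could not be tested. Of the genes compared in both lines, 17.4% had a larger difference. With counts cut to 50%, the interval in SW1990 ran from -0.01 to 0.38 and included 0.

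ACER3 (chr11:76860867-77026797, plus strand), an alkaline ceramidase of the endoplasmic reticulum and Golgi apparatus, had 983 and 898 counts in SW1990 and 1028 and 819 in PANC-1. The log2 folds were -0.11 (-0.24 to 0.02) and -0.20 (-0.33 to -0.06). Its FPKM was 8.64 and 10 in SW1990 and 10.2 and 5.77 in PANC-1, which gave log2 folds of 0.22 and -0.82. The sign in SW1990 and the size in PANC-1 depended on the unit. Of the summed FPKM of ASAH1, ASAH2, ACER1, ACER2 and ACER3, ASAH1 made up 57.8% and 58.5% in SW1990 and 38.9% and 33.2% in PANC-1. ACER2 made up 4.45% and 6.9% in SW1990, and 5.1% and 14.2% in PANC-1. The summed FPKM in PANC-1 was 24.15 and 16.53, with both ASAH1 and ACER3 lower after irradiation. The ACER2 share there thus depended on the unit as well, through the size of the ACER3 fold. ACER1 was at 0 counts in all libraries.

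The sphingomyelin synthases SGMS1 and SGMS2 spanned a narrow range of FPKM across the libraries. From counts, SGMS2 had a log2 fold of SW1990 over PANC-1 of 0.46 (0.31 to 0.60) unirradiated and 0.09 (-0.06 to 0.23) irradiated. SGMS1 (chr10:50305586-50625163, minus strand), the synthase of the Golgi apparatus, had 610 and 538 counts in SW1990 and 813 and 672 in PANC-1, with 10.2 to 11.3 FPKM in the 4 libraries. Its log2 folds with radiation were -0.16 (-0.33 to 0.01) and -0.15 (-0.29 to 0.01). SGMS2 (chr4:107824563-107915047, plus strand), the synthase of the plasma membrane, had 845 and 784 counts in SW1990 and 687 and 763 in PANC-1, with 7.86 to 9.84 FPKM. Its log2 folds were -0.09 (-0.23 to 0.05) and 0.28 (0.13 to 0.43). SGMS1 made up 53% to 56.7% of the summed FPKM of the pair in all libraries. Its exons share 207 bases with the antisense gene SGMS1-AS1, which had between 29 and 142 counts.

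SPHK1 (chr17:76376584-76387860, plus strand), which forms sphingosine 1-phosphate, had 18 and 19 counts in unirradiated and irradiated SW1990 and 261 and 329 in PANC-1. Its exons share 59 bases with PRPSAP1 on the other strand, which had 442 to 812 counts, so the few counts in SW1990 are uncertain. The levels were 0.417 and 0.407 FPKM in SW1990 and 4.77 and 6.44 FPKM in PANC-1. The log2 fold with radiation was 0.46 (0.23 to 0.70) in PANC-1, and SW1990 lay under the FPKM limit. SPHK2, the second sphingosine kinase, had 457 and 498 counts in SW1990 and 431 and 440 in PANC-1. SPHK1 made up 4.32% and 3.68% of the summed FPKM of the 2 kinases in SW1990, and 43.1% and 43.9% in PANC-1.

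Counted together, 0 of 8 members compared in SW1990 and 0 of 9 in PANC-1 were past 2-fold with radiation. Of all genes 7.9% and 7.76% were, so with so few members a count of 0 shows nothing particular to them. Past 1.5-fold were 2 of 8 in SW1990 (ACER2 and SMPD1), against 19.1% of all genes. In PANC-1 it was 1 of 9 (ACER2), against 20.5% of all genes. The median log2 fold of the members was 0.05 in SW1990 and 0.13 in PANC-1, and that of all genes 0.02 and -0.01. From FPKM the medians were 0.27 and 0.08 for the members, and -0.03 and 0.07 for all genes. The median size of the fold was 0.2 and 0.28 for the members, and 0.23 and 0.27 for all genes. In the fit over all 4 libraries no member passed the radiation test, nor did any of the 18244 genes (0%, edgeR quasi-likelihood test, Benjamini-Hochberg). In the same edgeR test, 1 of the 10 members (ACER2) and 870 of all genes (4.77%) had an unadjusted p below 0.05. That share is near what this limit passes where no gene differs. DESeq2 called 312 genes and limma 1.

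**Figure D3:**
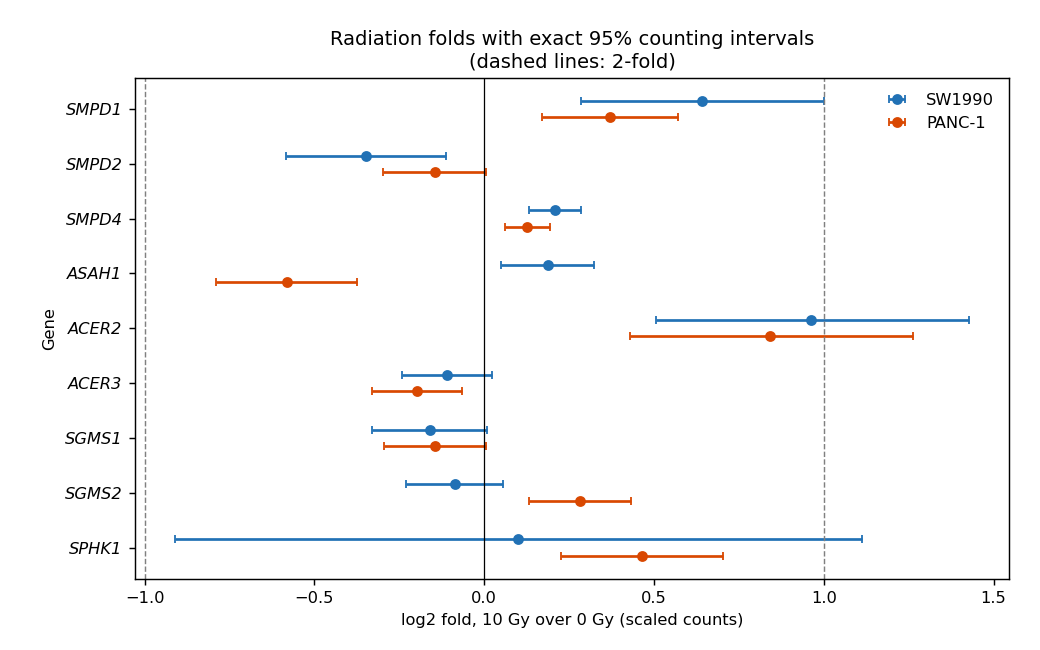
Log2 fold of the irradiated over the unirradiated library (horizontal axis) for the 9 members other than SMPD3, with exact 95% counting intervals. ACER2 lies farthest to the right in both lines, ASAH1 lies on opposite sides of 0, and the wide bar of SPHK1 in SW1990 rests on 18 and 19 counts.

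The lines differed more than the treatments. Against 40.2% of all genes, 3 of the 9 members compared (SMPD1, SMPD2 and SPHK1) were past 2-fold between the unirradiated libraries, all lower in SW1990. Between the irradiated libraries it was 4 of 9, against 39.7% of all genes, with ASAH1 higher in SW1990 as the fourth. With treatment as covariate, the line difference passed the test in 4 of the 10 members and in 44.4% of all genes (edgeR quasi-likelihood test, adjusted p below 0.05). The members' share thus lay near the background. SPHK1 was lower in SW1990 by 3.88 on the log2 scale (edgeR, SE 0.342, adjusted p = 0.00119). SMPD1 was lower by 1.5 (edgeR, SE 0.244, adjusted p = 0.00728) and SMPD2 by 1.16 (edgeR, SE 0.191, adjusted p = 0.00749). ASAH1 was higher in SW1990 by 1.23 (edgeR, SE 0.245, adjusted p = 0.0133), and this call was lost in DESeq2 with a mean in place of a dispersion trend (adjusted p = 0.0625). For SMPD2 the fold between the unirradiated libraries was 2.09, and it was under the limit when libraries were scaled by their totals, with a log2 fold of -0.83, or when FPKM were used, with -0.76. For ASAH1 the log2 fold between the same libraries was 0.85, and with library totals it was 1.08 and past the limit. The other 6 members did not pass in edgeR. DESeq2 called SMPD4 (adjusted p = 0.012), and with a mean in place of the trend it did not (adjusted p = 0.591). For SMPD4 the log2 difference was -0.28 ± 0.14 (SE) and for SGMS2 0.27 ± 0.183 (SE).

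The rest of the pathway was taken from 68 further sphingolipid genes in 6 lists. Of these, 51 were compared in SW1990 and 54 in PANC-1 for radiation. In SW1990 1 was past 2-fold upward and 2 downward, where 7.9% of all genes compared were past 2-fold in either direction. In PANC-1 it was 3 upward and 1 downward, against 7.76% of all genes. The counts by list below are parts of these, so nothing particular to a list is read from them. The median log2 fold was 0.08 in SW1990 and -0.02 in PANC-1. From FPKM it was 0.03 and 0.09, against -0.03 and 0.07 for all genes.

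In de novo ceramide synthesis, 0 of 14 genes compared in SW1990 were past 2-fold upward and 1 downward. That gene was ORMDL3, whose protein restrains serine palmitoyltransferase, the first enzyme of the route. It had 824 counts in unirradiated and 207 in irradiated SW1990, a log2 fold of -1.97 (-2.20 to -1.75), and 623 and 788 counts in PANC-1, a log2 fold of 0.47 (0.32 to 0.62). In PANC-1 1 of 14 was past 2-fold, SPTSSB, a small subunit of the same enzyme, on 3 and 9 counts, a log2 fold of 1.71 with an interval from -0.29 to 4.24. CERS2, the ceramide synthase of very long acyl chains, made up 60.6% to 79.7% of the summed FPKM of the 6 ceramide synthases. It was lower in irradiated SW1990 and higher in irradiated PANC-1, at 2884 and 1587 counts and 3846 and 6361 counts. Its log2 folds of -0.84 and 0.86 both lay under the 2-fold limit.

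Of the other sphingomyelin and ceramide enzymes, 1 of 8 compared in SW1990 was past 2-fold downward and 1 of 7 in PANC-1 upward. ASAH2B, a shorter relative of the neutral ceramidase gene ASAH2, had 265 and 75 counts in SW1990 and 303 and 194 in PANC-1. Its log2 fold in SW1990 was -1.80 (-2.19 to -1.43), but -0.74 from FPKM, under the limit. ASAH2 and ASAH2B are near-identical over part of their length, so the split of their counts is uncertain. ASAH2 itself had 203 and 194 counts in SW1990. NAAA, a lysosomal amidase related to acid ceramidase, had 60 and 131 counts in PANC-1, a log2 fold of 1.26 (0.80 to 1.72), and 206 and 292 in SW1990, a log2 fold of 0.52. Its exons share 102 bases with SDAD1 on the same strand, which had 954 to 1234 counts.

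No gene of the 4 for ceramide and glycolipid transfer was past 2-fold in either line. In glycosphingolipid synthesis 0 of 5 genes were past 2-fold in SW1990 and 1 of 7 in PANC-1. ST3GAL5, the synthase of the ganglioside GM3, had 602 and 1315 counts in PANC-1 and 54 and 89 in SW1990. Its log2 folds were 1.26 (1.12 to 1.40) and 0.74 (0.24 to 1.26), and the adjusted p over both lines was 0.944 in edgeR and 0.0137 in DESeq2.

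In the list for lysosomal sphingolipid breakdown, 10 of 11 genes were higher in irradiated SW1990 and 4 of 11 in irradiated PANC-1. Of all genes compared, 53.9% and 48.4% were higher. The list also holds GBA2, which encodes a glucosylceramidase outside the lysosome, with log2 folds of -0.015 in SW1990 and -0.061 in PANC-1. The median log2 fold was 0.33 in SW1990 and -0.13 in PANC-1, against 0.02 and -0.01 for all genes. From FPKM 9 and 7 of the 11 were higher, with medians of 0.28 and 0.11, against -0.03 and 0.07 for all genes. Direction in PANC-1 thus depended on the unit, and the FPKM median there lay near that of all genes. NEU1, the lysosomal sialidase, was the only gene of the list past 2-fold, with 299 and 740 counts in SW1990, a log2 fold of 1.33 (1.13 to 1.53). In PANC-1 it had 1452 and 1735 counts, a log2 fold of 0.39. Of the genes for sphingosine 1-phosphate, 0 of 9 were past 2-fold in SW1990 and 1 of 11 in PANC-1. That was SPNS2, which exports sphingosine 1-phosphate, with 2600 and 885 counts in PANC-1, a log2 fold of -1.43 (-1.54 to -1.31), and 762 and 673 in SW1990, a log2 fold of -0.16.

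**Figure D4:**
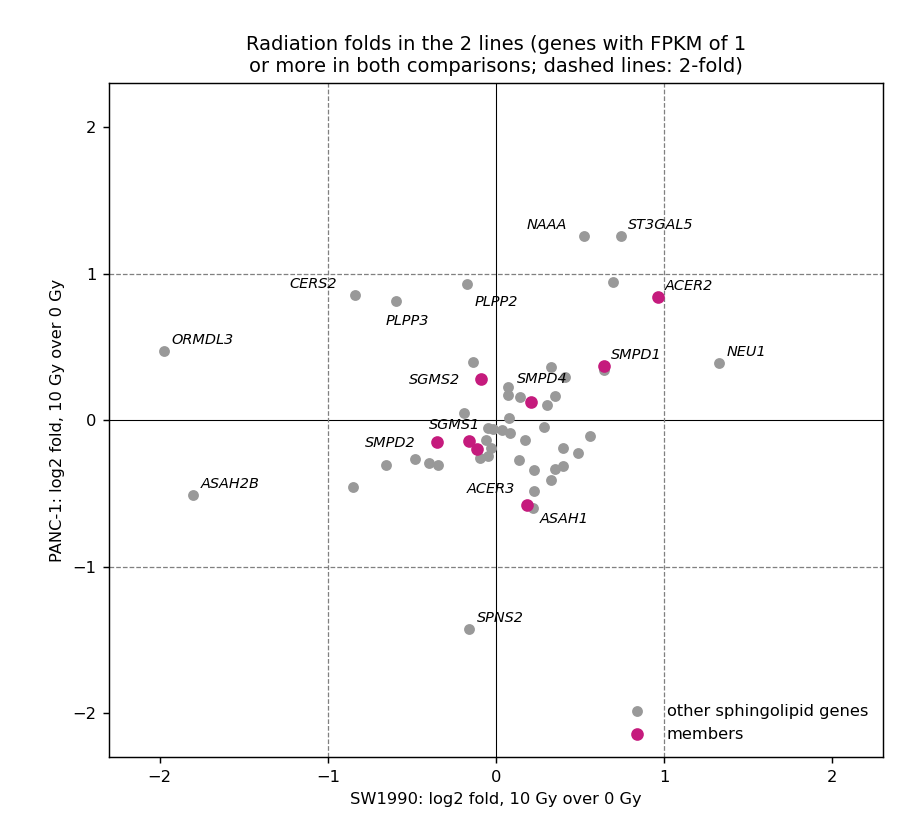
Log2 fold with radiation in SW1990 (horizontal axis) and PANC-1 (vertical axis) of sphingolipid genes compared in both lines, with the members in colour and dashed lines at 2-fold. No gene lies past 2-fold in both lines, and ORMDL3, CERS2 and PLPP3 lie to the upper left.

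Between the lines, 28 of the 59 further sphingolipid genes tested passed the edgeR quasi-likelihood test, 47.5% against 44.4% of all genes, with 11 higher and 17 lower in SW1990. By list they were 5 of 16 in de novo synthesis, 2 of 8 other sphingomyelin and ceramide enzymes, 1 of 4 in transfer, 7 of 8 in glycosphingolipid synthesis, 7 of 11 in lysosomal breakdown and 6 of 12 for sphingosine 1-phosphate.

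Several of these genes had far more counts in 1 line than in the other. UGT8, which makes galactosylceramide, had 1901 and 1492 counts in SW1990 and 0 and 0 in PANC-1. SPTLC3, a serine palmitoyltransferase subunit, had 739 and 507 counts against 0 and 0. DEGS2, a dihydroceramide desaturase and hydroxylase, had 592 and 684 counts against 0 and 4. These genes were near absent from PANC-1. SGPP2, a sphingosine 1-phosphate phosphatase, had 745 and 719 counts in SW1990 against 0 and 10 in PANC-1, and SMPDL3B, a phosphodiesterase related to acid sphingomyelinase, had 424 and 607 against 11 and 4.

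A lower level in SW1990 was seen for 5 of the 10 genes with the largest folds between the lines. B4GALNT1, the synthase of the gangliosides GM2 and GD2, had 2 and 11 counts in SW1990 and 1027 and 1166 in PANC-1. S1PR3, a sphingosine 1-phosphate receptor, had 0 and 0 counts against 425 and 635. A4GALT, the synthase of globotriaosylceramide, had 0 and 0 against 153 and 148, and CERS4, a ceramide synthase, had 0 and 0 against 81 and 107. ST3GAL5 was lower in SW1990 by 3.59 on the log2 scale (edgeR, SE 0.241, adjusted p = 0.000592).

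**Figure D5:**
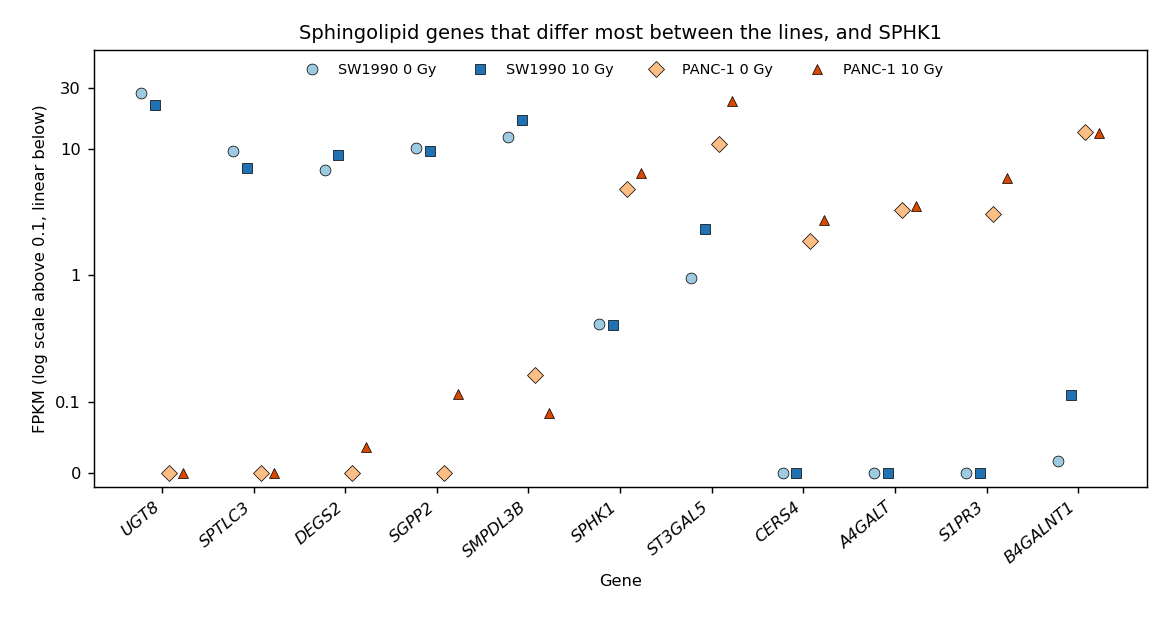
FPKM in each library (vertical axis, logarithmic above 0.1 and linear below) of SPHK1 and the 10 further sphingolipid genes with the largest folds between the lines. For UGT8 to SMPDL3B on the left the SW1990 points lie above the PANC-1 points, and from SPHK1 to the right they lie below.

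As context for the irradiation, CDKN1A, the p53 target that encodes the cell cycle inhibitor p21, had 1229 and 4002 counts in unirradiated and irradiated SW1990, a log2 fold of 1.72 (1.63 to 1.82). In PANC-1 it had 1282 and 782 counts, a log2 fold of -0.58 (-0.71 to -0.45). MDM2, which encodes the ligase that degrades p53, had 4522 and 7373 counts in SW1990 and 3070 and 3273 in PANC-1, log2 folds of 0.73 and 0.22. The 8 context genes compared in SW1990 were all higher in the irradiated library, 7 of them with an interval above 0 and 3 past 2-fold. Of all genes compared there, 53.9% were higher and 7.9% past 2-fold in either direction. Of the 6 compared in PANC-1, 3 were higher, 2 with an interval above 0 and 3 with an interval below 0, and 0 were past 2-fold. Of all genes there, 48.4% were higher and 7.76% past 2-fold.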

How the data were processed

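Total RNA was taken with Trizol and made into mRNA libraries, while the labels also name rRNA depletion. The submitters' processing notes name CASAVA 1.8, FastQC 0.11.2, Trimmomatic 0.36, HISAT2 2.0, StringTie 1.3.3b and DESeq2 1.12.4, and the genome build GRCh38. The authors deposited raw read counts per gene, with no normalization and by a counter not given in the sources used here, and FPKM values, normalized for length and depth by the authors. Every sample column was matched to a label. The 1089 rows that name no gene held 0.453% to 0.635% of the counts and were left out.

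Libraries were scaled by TMM (edgeR 4.0.16, R 4.3.3). Folds are ratios of scaled counts, with counts under 3 set to 3, and exact 95% Clopper-Pearson intervals. Between 53% and 53.9% of counts from 1 to 20 were even, so both mates of a pair may have been counted, and intervals from counts cut to 50% were also made. Both terms of line and treatment were fitted with edgeR's quasi-likelihood test over 18244 genes (Benjamini-Hochberg, limit 0.05). Since the labels do not say that libraries came from separate cultures, p-values measure only the spread between these libraries. With 1 library per condition, that spread comes from how far the lines differed in their response to radiation, not from repeat libraries.

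The members and lists were chosen with earlier results of these data known. Named were all members, further sphingolipid genes past 2-fold with radiation, the 10 with the largest fold between the lines, higher or lower, among those past 2-fold in the same direction in both treatments, CDKN1A and MDM2. CERS2, GBA2, ASAH2, SPHK2, SMPD5, ENPP7, ACER1 and the overlapping genes were added after their values were seen. Other scalings, filters, limits and tools (DESeq2 1.42.0, limma 3.58.1 on log2(FPKM + 1)) were tried. Some genes of the lists are not reported here by name. GENCODE 29 (GRCh38) gave the same coordinates for the 10 members.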

Additional observations from a re-analysis of the deposited data

Results flagged for a closer look

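Of 53 sphingolipid genes and members compared in both lines, 7 moved in opposite directions after irradiation, with intervals from counts cut to 50% on opposite sides of 0. By the same rule 1119 of all 13228 genes compared in both lines did so (8.46%), so nothing particular to these genes is read from the count. With 1 library per condition, none of these differences between the lines was tested. The difference of log2 folds, SW1990 minus PANC-1, was -2.44 for ORMDL3, -1.70 for CERS2, -1.41 for PLPP3 and -1.10 for PLPP2, which were lower after irradiation in SW1990 and higher in PANC-1. PLPP2 and PLPP3 encode phosphatases of lipid phosphates, and PLPP3 had 245 and 160 counts in SW1990 and 210 and 337 in PANC-1. The difference was 0.74 for SAMD8, 0.71 for SGPP1 and 0.56 for B4GALT5, which were higher in SW1990 and lower in PANC-1. For PLPP2 the fold in SW1990 was -0.17 from counts and 0.01 from FPKM, so its direction there depended on the unit.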

How the results depend on the processing

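No member was past 2-fold with radiation under any of the 4 other scalings or units tried. Of 36 member folds, 12 moved beyond their interval and 11 changed sign when FPKM were used, 8 moved and 1 changed sign with library totals, and 0 moved with DESeq2 size factors or with TMM within each pair, the last chosen after seeing the data. The number of genes past 2-fold with radiation was 1242 in SW1990 and 1176 in PANC-1. It was 3095 and 3151 without the FPKM limit, 344 and 363 with a limit of 5, 3010 and 3102 at 1.5-fold, and 662 and 712 with a read test at q below 0.001, which compares 1 library with 1 library and covers counting error only. Between the lines the limit of 5 gave 3789 genes in the unirradiated and 3668 in the irradiated libraries, against 6684 and 6675. Library totals moved the median log2 fold between the unirradiated lines to 0.215, and the split past 2-fold from 3269 higher and 3415 lower to 4022 higher and 2798 lower in SW1990. The radiation test over both lines called 0 genes with edgeR, 312 with DESeq2, 3 with DESeq2 using a mean in place of a dispersion trend (chosen after seeing the data) and 1 with limma. The cause of these differences was not tested. The other alternatives changed no such count by over 1.5 times. Leaving out a library leaves no residual degree of freedom, so those fits could give no test, and the fold in the line that remained is the one printed for that line. No replicate block could be fitted, because each condition has 1 library and the labels carry no replicate numbers. The radiation fit pairs the libraries by line, its covariate.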

Other observations

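The 4 genes S1PR2, PSAP, UGCG and SPTLC2 were picked after their values were seen. S1PR2, a sphingosine 1-phosphate receptor, had 213 and 340 counts in unirradiated and irradiated SW1990 and 105 and 184 in PANC-1. Its log2 folds with radiation were 0.69 (0.44 to 0.95) and 0.94 (0.59 to 1.3), both under the 2-fold limit, and it did not pass the edgeR quasi-likelihood test (log2 fold 0.81 ± 0.262 SE, adjusted p = 0.944). The receptors S1PR1 and S1PR4 were at 0 counts in all 4 libraries.

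PSAP, which encodes the precursor of the saposins that help lysosomal enzymes reach sphingolipids, was lower in SW1990 by 2.31 on the log2 scale (edgeR, SE 0.153, adjusted p = 0.000565), with 104 and 128 FPKM in SW1990 and 527 and 621 FPKM in PANC-1. UGCG, the glucosylceramide synthase, was lower in SW1990 by 1.43 (edgeR, SE 0.165, adjusted p = 0.00258). SPTLC2, a catalytic subunit of serine palmitoyltransferase, was higher in SW1990 by 1.44 (edgeR, SE 0.15, adjusted p = 0.00192).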
